A study of Mus musculus with 8 samples.

Results

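Collagen becomes a strong fibre through a series of enzymes and a chaperone, and 10 of their genes were followed in livers with steatosis. These were the prolyl 4-hydroxylase alpha subunits P4ha1 and P4ha2, the lysyl hydroxylases Plod1, Plod2 and Plod3, the collagen chaperone Serpinh1 (HSP47), and the lysyl oxidases Lox, Loxl1, Loxl2 and Loxl4. They were taken by gene symbol for what their products do, with earlier results of these data known, and all 10 were found among the 17810 genes listed. RNA-Seq was performed in livers of 4 WT and 4 miR-33 HKO male littermates at 5 months of age, with 1 library per liver. From 8 weeks of age all mice were kept for 3 months on the CD-HFD, a high-fat diet without choline, and there was no chow group in these data. HKO mice, whose genotype is labelled AlbCRE, carry floxed miR-33 alleles that Cre recombinase deletes under the albumin promoter, so the deletion is aimed at hepatocytes, and whether this promoter also acts in cholangiocytes was not determined in the study. The question was whether the genes that fold and crosslink collagen differ between WT and HKO livers at the stage of MASL, the simple steatosis that precedes steatohepatitis.

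New collagen chains enter the endoplasmic reticulum, where prolyl hydroxylation stabilises the triple helix and lysyl hydroxylation prepares the residues that will later be joined. Serpinh1 holds the folded helix until the procollagen leaves the compartment, and outside the cell the copper enzymes of the lysyl oxidase family oxidise lysines, so that neighbouring molecules form covalent bonds. In the liver these genes are studied in fibrosis, where crosslinked collagen is stiff and hard to degrade, and stellate cells and portal fibroblasts are the usual producers of fibrillar collagen.

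The livers held between 12174339 and 18735785 estimated counts each. One library could show 3 counts at 0.149 to 0.255 CPM (read counts scaled by TMM to a common library total), a floor that covers counting error only. Hepatocyte markers summed to 85400 to 120000 CPM in WT livers and 74600 to 128000 CPM in HKO livers, and Alb was among the genes tested. The first principal component of all tested genes held 36.2% of the variance and separated the genotypes. The libraries carried the order numbers 55 to 58 for HKO and 59 to 62 for WT, so their numbering and the genotype cannot be told apart. Mir33 itself was not analysed here, and the genotype of each liver was taken from its label. Each library has its own mouse number in its title and column name, although the descriptions of the WT samples all share the same number. The libraries were taken as separate mice, and p-values measure the spread between these mice.

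The 2 mature strands of miR-33, the RNA deleted in HKO hepatocytes, are shown because their seeds, bases 2 to 8 in capitals, define the matches searched in the members. The sequences are from RefSeq on GRCm38.p6, where both lie on the plus strand of chromosome 15, the 5p strand at chr15:82198127-82198147 and the 3p strand at chr15:82198167-82198188.
mmu-miR-33-5p: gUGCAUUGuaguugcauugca
mmu-miR-33-3p: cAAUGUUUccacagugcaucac
A match was a stretch of the longest annotated 3′UTR complementary to bases 2 to 8, or to bases 2 to 7 followed by A. In 9 of the 10 members the 3′UTR, from 387 bases in Plod3 to 2715 bases in Loxl2, held no match to either strand. Lox was the exception, with 1 match to the 5p strand at base 1067 of its 3160-base 3′UTR and 2 matches to the 3p strand. Over 11536 genes with a 3′UTR, 16.2% held a match to the 5p strand and 25.8% held one to the 3p strand. A match is a string of letters and not a measured site.

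Of the 10 members, all of which had enough counts to be tested, 0 passed edgeR's quasi-likelihood test at an adjusted p under 0.05, while 624 of 12395 genes did (5.03%). By the same tool, 206 genes were higher in HKO livers (1.66%) and 418 were lower (3.37%), and with scaling to total counts these were 119 and 625. At an unadjusted p under 0.05, 4 members were lower in HKO livers (Serpinh1, Lox, Loxl1 and Loxl2), against 10.7% of all tested genes. This count rested on single livers, since it was 1 (Loxl2) without WT replicate 1, without WT replicate 4 or without HKO replicate 4, and at most 5, without WT replicate 3. DESeq2 called 1 member, Loxl2, while it called 8.18% of all genes, and limma-voom called 0 members and 4.86% of all genes. The livers of the genotypes did not overlap in 1 member, again Loxl2, and 7.19% of tested genes were lower in HKO livers without overlap. The members' median log2 fold change (HKO minus WT) was −0.27, with 7 members below 0 and 3 above, and over all tested genes the median was 0.01. With single livers left out the members' median ran from −0.33 without HKO replicate 1 to −0.14 without WT replicate 1. The median was −1.15 for the 4 lysyl oxidases, and −0.07 for the 5 hydroxylases, which ranged from −0.46 to 0.22. That of the oxidases was −0.92 without WT replicate 1, and −0.69 without WT replicates 1 and 4, a setting chosen after seeing the data. With at least 10 counts in every liver, where Lox and Loxl1 were not tested, the oxidase median was −0.29. That of the hydroxylases lay between −0.11 and −0.0012 with any 1 liver left out.

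**Figure D1:**
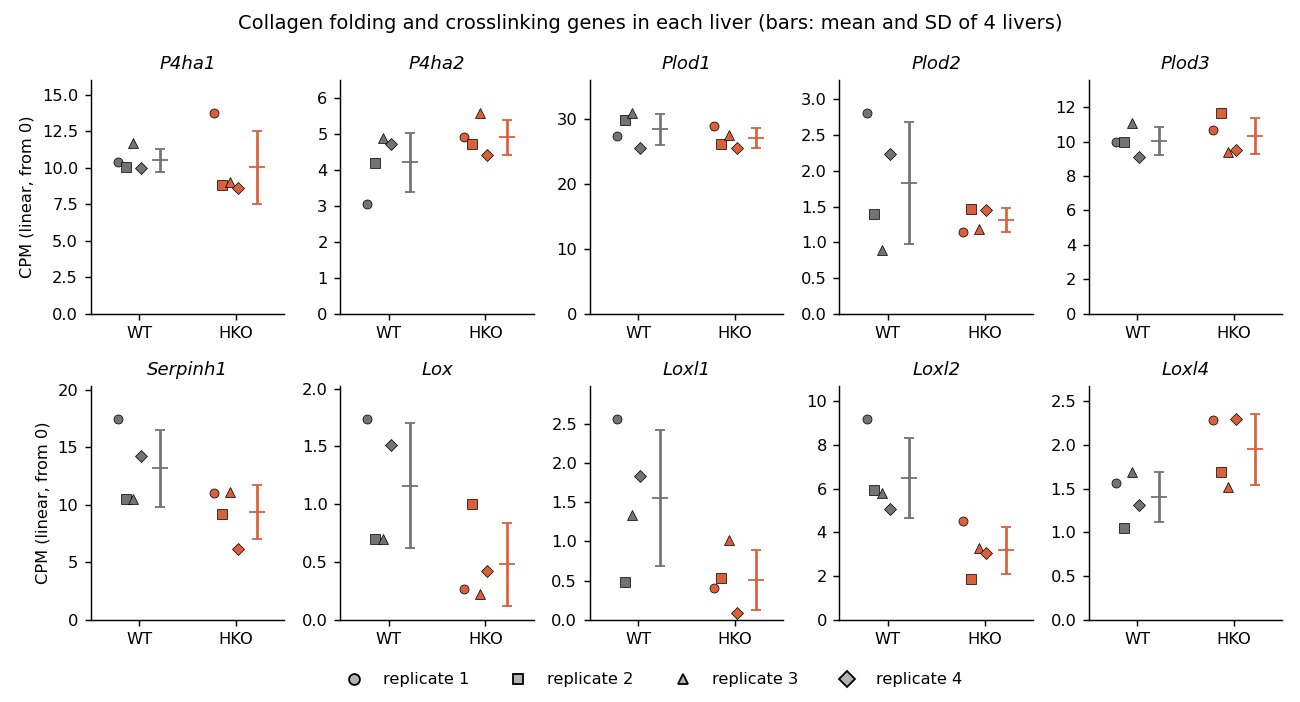
CPM of each member in the 4 WT livers (grey) and the 4 HKO livers (orange) on linear axes from 0, with 1 symbol per replicate number and the mean and SD beside the points. The genotypes are separate in Loxl2, where WT livers lie between 5.06 and 9.17 CPM and HKO livers between 1.85 and 4.52 CPM, and overlap in the other 9 genes.

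Loxl2 showed the clearest difference. This gene, on GRCm38 at chr14:69609476-69695835 on the plus strand, encodes a secreted lysyl oxidase that crosslinks collagen, including the network of basement membranes. Its level was 9.17, 5.93, 5.81 and 5.06 CPM in WT livers 1 to 4 and 4.52, 1.85, 3.27 and 3.06 CPM in HKO livers 1 to 4. Every HKO liver was below every WT liver, although HKO replicate 1 came close to WT replicate 4. The means were 6.49 ± 1.83 CPM (SD, n = 4) in WT mice and 3.17 ± 1.09 CPM (SD, n = 4) in HKO mice, a 2.02-fold lower level. The log2 fold change was −1.02 with an SE of 0.27 and a 95% interval of −1.60 to −0.44, and an exact two-sided permutation test, with 70 ways to assign the livers, gave p = 0.0286, the smallest it can give. The adjusted p from edgeR over all genes was 0.0507, just outside the threshold, and over the alternatives it ran from 0.00936 with DESeq2 to 0.202 without WT replicates 1 and 4. Loxl2 passed the threshold in 9 of 18 alternatives, so its call depends on the setting while its direction does not. In bulk liver RNA, fewer cells that express a gene and less RNA per cell cannot be told apart.

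Lox and Loxl1 were lower on average, but a handful of counts carried these values. Lox (chr18:52516060-52529868, minus strand) is the founding member of the family and acts on collagen and elastin. It had 21, 10, 14 and 23 counts in WT livers 1 to 4 and 4, 13, 4 and 5 counts in HKO livers 1 to 4. In CPM these were 1.73, 0.697, 0.696 and 1.51 in WT livers and 0.270, 1.00, 0.225 and 0.425 in HKO livers. WT replicates 1 and 4 were the high WT livers, and HKO replicate 2 lay above WT replicates 2 and 3. For Lox the log2 fold change was −1.28 (SE 0.53, 95% interval −2.44 to −0.12), and edgeR gave an adjusted p of 0.208. With single livers left out it ran from −1.90 without HKO replicate 2 (adjusted p = 0.0795 from edgeR) to −0.99 without HKO replicate 3 (adjusted p = 0.408). HKO replicate 2 was also the HKO liver with the highest Acta2, at 6.56 CPM, and the highest sum of cholangiocyte markers, at 111 CPM, and the part of either in its Lox level was not tested.

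Loxl1 (chr9:58287723-58313213, minus strand) is best known for the crosslinking of tropoelastin into elastic fibres. It had 31, 7, 27 and 28 counts in WT livers 1 to 4 and 6, 7, 18 and 1 counts in HKO livers 1 to 4. This corresponds to 2.56, 0.488, 1.34 and 1.84 CPM in WT livers and to 0.405, 0.540, 1.01 and 0.0850 CPM in HKO livers. WT replicate 2 was within the HKO range, the other 3 WT livers were above it, and the count of 1 in HKO replicate 4 lay under the floor of its library. On the log2 scale Loxl1 differed by −1.48 (SE 0.57, 95% interval −2.73 to −0.24), larger in size than that of Loxl2 but with an adjusted p of 0.174 from edgeR, and it ran from −2.08 without HKO replicate 3 to −1.17 without WT replicate 1. Exact permutation of the livers gave p = 0.0857 for Loxl1 and p = 0.0857 for Lox.

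Loxl4 lay on the other side of 0, without passing the test. It encodes another secreted oxidase of the subgroup with scavenger receptor domains to which Loxl2 belongs (chr19:42592279-42612807, minus strand). WT livers 1 to 4 had 1.57, 1.05, 1.69 and 1.31 CPM, and HKO livers 1 to 4 had 2.29, 1.70, 1.52 and 2.30 CPM. HKO replicate 3 lay within the WT range and the other 3 HKO livers lay above it, by little in replicate 2. The log2 fold change was 0.46 (95% interval −0.13 to 1.04), with an adjusted p of 0.380 from edgeR and p = 0.114 by exact permutation. Loxl3, a lysyl oxidase outside the members, was at 0.858 ± 0.294 CPM in WT mice and at 0.953 ± 0.607 CPM in HKO mice (SD, n = 4), a log2 difference of 0.18 (edgeR, adjusted p = 0.874).

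The paralogs were then compared within each liver, as the log2 ratio of one member to another of its family. Of 10 such pairs, 1 did not overlap between the genotypes, against 12.5% of all pairs of tested genes, so this count is close to the background and says nothing particular about the families. The ratio of Loxl2 to Loxl4 was 2.45, 2.36, 1.71 and 1.84 in WT livers 1 to 4 and 0.939, 0.117, 1.04 and 0.395 in HKO livers 1 to 4, on the log2 scale. The ratio was lower in each HKO liver than in any WT liver. It is a ratio of CPM without exon length, so its sign does not rank the levels of these genes. The difference of the mean ratios was −1.47, with p = 0.0286 by the exact two-sided permutation test, the smallest of the design and not adjusted over the 10 pairs. For Lox to Loxl4 the difference was −1.57 and for Loxl1 to Loxl4 it was −1.87, each with p = 0.0571 by exact permutation. In the other 7 pairs, which include all pairs of hydroxylases, the exact permutation p lay between 0.229 and 0.857.

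Summed over the 4 genes, lysyl oxidase transcripts came to 15.0, 8.16, 9.54 and 9.72 CPM in WT livers 1 to 4 and to 7.48, 5.09, 6.02 and 5.87 CPM in HKO livers 1 to 4. These sums include Loxl2, the member that did not overlap by itself, while Lox, Loxl1 and Loxl4 each overlapped. The lysyl hydroxylase sums ranged from 36.9 to 42.9 CPM in WT mice and from 36.5 to 40.7 CPM in HKO mice, and those of the prolyl 4-hydroxylase alpha subunits from 13.5 to 16.5 CPM and from 13.0 to 18.7 CPM.

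**Figure D2:**
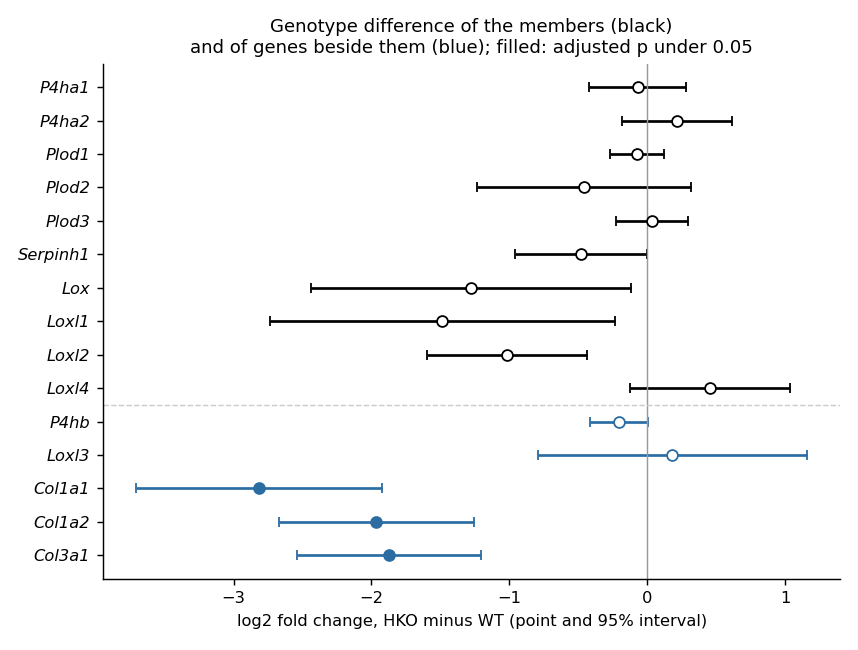
Log2 fold change (HKO minus WT) with its 95% interval from edgeR for the 10 members (black) and for P4hb, Loxl3 and the fibrillar chains Col1a1, Col1a2 and Col3a1 (blue), filled where the adjusted p is under 0.05. Lox, Loxl1 and Loxl2 lie between −1.48 and −1.02 with wide intervals, the 5 hydroxylase genes between −0.46 and 0.22, and Col1a1 at −2.81.

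Serpinh1 (chr7:99345375-99353240, minus strand), whose product is a chaperone dedicated to procollagen, was at 17.4, 10.5, 10.5 and 14.2 CPM in WT livers 1 to 4 and at 11.1, 9.18, 11.1 and 6.12 CPM in HKO livers 1 to 4. WT replicates 1 and 4 stood above all HKO livers, WT replicates 2 and 3 were within the HKO range, and HKO replicate 4 was the lowest. The means were 13.2 ± 3.34 CPM in WT and 9.38 ± 2.35 CPM in HKO mice (SD, n = 4). On the log2 scale this was −0.48 (SE 0.22), for which edgeR gave an adjusted p of 0.250, and exact permutation gave p = 0.171. It was −0.32 without WT replicate 1 (adjusted p = 0.509 from edgeR).

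The prolyl 4-hydroxylase is a tetramer in which the alpha subunits carry the catalytic site. P4ha1 (chr10:59323296-59373305, plus strand) was at 10.4, 10.04, 11.7 and 9.98 CPM in WT livers 1 to 4 and at 13.8, 8.79, 9.01 and 8.59 CPM in HKO livers 1 to 4. HKO replicate 1 was the highest of all livers and the other 3 HKO livers were the lowest. Between genotypes P4ha1 differed by −0.07 on the log2 scale (95% interval −0.42 to 0.28, adjusted p = 0.868 from edgeR), and with single livers left out it ran from −0.26 without HKO replicate 1 (adjusted p = 0.287) to −0.0012 without HKO replicate 4.

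P4ha2 (chr11:54100924-54131668, plus strand), the second catalytic subunit, was at 3.06, 4.18, 4.87 and 4.73 CPM in WT livers 1 to 4 and at 4.92, 4.70, 5.57 and 4.42 CPM in HKO livers 1 to 4. WT replicates 1 and 2 were below every HKO liver and the other WT livers were within the HKO range. Its log2 fold change was 0.22 (95% interval −0.18 to 0.61), with an adjusted p of 0.567 from edgeR. Leaving out WT replicate 1 gave 0.10, and leaving out HKO replicate 3 gave 0.14. P4hb, the disulfide isomerase that forms the beta subunit of the tetramer and serves many other proteins, lay between 1280 and 1620 CPM in WT mice and between 1200 and 1300 CPM in HKO mice, a log2 difference of −0.21 (edgeR, adjusted p = 0.261).

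Among the lysyl hydroxylases, Plod1 (chr4:147909753-147936777, minus strand), which acts on the helical part of the chains, was the steadiest of the members. It was at 27.4, 29.8, 30.9 and 25.5 CPM in WT livers 1 to 4 and at 28.9, 26.1, 27.5 and 25.5 CPM in HKO livers 1 to 4. The genotypes overlapped almost entirely. Plod1 differed by −0.07 on the log2 scale, with the narrowest 95% interval among the members (−0.27 to 0.12) and an adjusted p of 0.714 from edgeR. With single livers left out it ran from −0.12 without WT replicate 4 to −0.03 without WT replicate 3.

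Plod2 (chr9:92542223-92608428, plus strand) modifies the telopeptide lysines that give the pyridinoline type of crosslink. It was at 2.81, 1.40, 0.894 and 2.23 CPM in WT livers 1 to 4 and at 1.15, 1.47, 1.18 and 1.45 CPM in HKO livers 1 to 4. WT replicates 1 and 4 were the highest and WT replicate 3 the lowest of all livers, so that the WT SD was 0.853 CPM against 0.169 CPM in HKO mice. HKO minus WT was −0.46 on the log2 scale (95% interval −1.23 to 0.32), with an adjusted p of 0.532 from edgeR. With single livers left out it ran from −0.71 without WT replicate 3 to −0.19 without WT replicate 1.

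Plod3 (chr5:136987019-136996647, plus strand) encodes an enzyme that also adds sugars to hydroxylysine. Its level was 9.99, 9.97, 11.1 and 9.13 CPM in WT livers 1 to 4 and 10.7, 11.6, 9.40 and 9.52 CPM in HKO livers 1 to 4. The genotypes overlapped. HKO minus WT was 0.04 on the log2 scale (95% interval −0.23 to 0.30, adjusted p = 0.913 from edgeR), and its sign turned with total count scaling, to −0.05. Exons of Plod3 overlap those of Znhit1 on the opposite strand. For Plod3, 5 livers had a fractional count (any value not exactly whole), and the source of the fractions was not tested. P4ha2 had a fractional count in 2 livers and the other 8 members had none. Antisense or unclassified genes that are not used here overlap exons of Loxl2, Lox and Plod2 on the opposite strand, and without strand in the counting their reads cannot be told apart from those of the members.

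Levels between genes were compared as mean CPM per kb of exon in WT livers. Plod1 was the highest member at 7.58, followed by Serpinh1 at 5.39, Plod3 at 2.95, P4ha1 at 2.56, P4ha2 at 1.51 and Loxl2 at 1.20 CPM per kb. Plod2 at 0.494, Loxl1 at 0.472, Loxl4 at 0.366 and Lox at 0.243 CPM per kb came last. Between neighbours in this order, the WT livers did not overlap from Serpinh1 to Plod3, from P4ha1 to P4ha2 and from Loxl2 to Plod2, and overlapped in the other 6 steps. Of the 5 hydroxylases, 4 thus ranked above every lysyl oxidase. For comparison, P4hb was at 506 CPM per kb and Col1a1 at 2.80 CPM per kb in WT livers.

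Several of the substrates of these enzymes fell in HKO livers. Of the fibrillar collagen chains, 8 of 9 were listed, 6 were tested and 4 fell in HKO livers, with a median log2 fold change of −1.69 over the 6. Col1a1 fell by 2.81 on the log2 scale (adjusted p = 0.00723 from edgeR), from 16.6 ± 7.56 CPM to 2.33 ± 0.917 CPM (SD, n = 4). Col1a2 fell by 1.96 (adjusted p = 0.0124), Col3a1 by 1.87 (adjusted p = 0.0137) and Col5a2 by 1.5 (adjusted p = 0.0207), all from edgeR. Col1a1, Col1a2 and Col3a1 passed in all 8 fits that left out a liver, and Col5a2 passed in 4. With the replicate number as a block the adjusted p from edgeR was 0.0816 for Col1a2 and 0.0863 for Col3a1, and over the alternatives that of Col5a2, which limma-voom did not call, was up to 0.161. Of the network and filament collagens, 8 of 11 were tested, all 8 were below 0 with a median of −0.75, and 1 passed the test, Col6a1, at −0.87 (edgeR, adjusted p = 0.0452, and up to 0.191 over the alternatives). Col4a1 of the basement membrane, at −0.65, had an adjusted p of 0.175 from edgeR. Without WT replicates 1 and 4, a setting chosen after seeing the data, the fibrillar median was −1.33 and Col1a1 was at −2.22. Col1a1, Col1a2 and Col3a1 passed in that setting, and Col5a2 and Col6a1 did not. Markers of portal fibroblasts and mesothelium, given below, were also lower, with a median of −1.43. These collagen chains fell in the same livers.

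Each member was therefore set against the mean log2 CPM of Col1a1, Col1a2 and Col3a1 in the same liver, which was 5.57, 4.36, 4.63 and 5.22 in WT livers 1 to 4 and 2.65, 3.28, 2.95 and 2.21 in HKO livers 1 to 4. Relative to these chains, 8 of 10 members were higher in HKO livers without overlap, as were 93.5% of 12392 genes, so this count says nothing particular about the members. On the log2 scale the difference was 2.61 for Loxl4, 2.40 for P4ha2, 2.20 for Plod3, 2.10 for Plod1, 2.07 for P4ha1, 1.83 for Plod2, 1.68 for Serpinh1 and 1.04 for Lox, each with p = 0.0286 by exact permutation. The gap was narrow for Lox, with −4.5 as the highest WT ratio and −4.43 as the lowest HKO ratio. With a prior count of 0.5 in place of 2, 7 members did not overlap. In the main setting, the 2 members that overlapped were Loxl1 and Loxl2. The ratio of Loxl2 was −2.35, −1.76, −2.05 and −2.84 in WT livers 1 to 4 and −0.437, −2.29, −1.19 and −0.536 in HKO livers 1 to 4, where HKO replicate 2 fell within the WT range. Its difference was 1.14 with p = 0.0857 by exact permutation, and for Loxl1 the difference was 0.73 with p = 0.143.

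**Figure D3:**
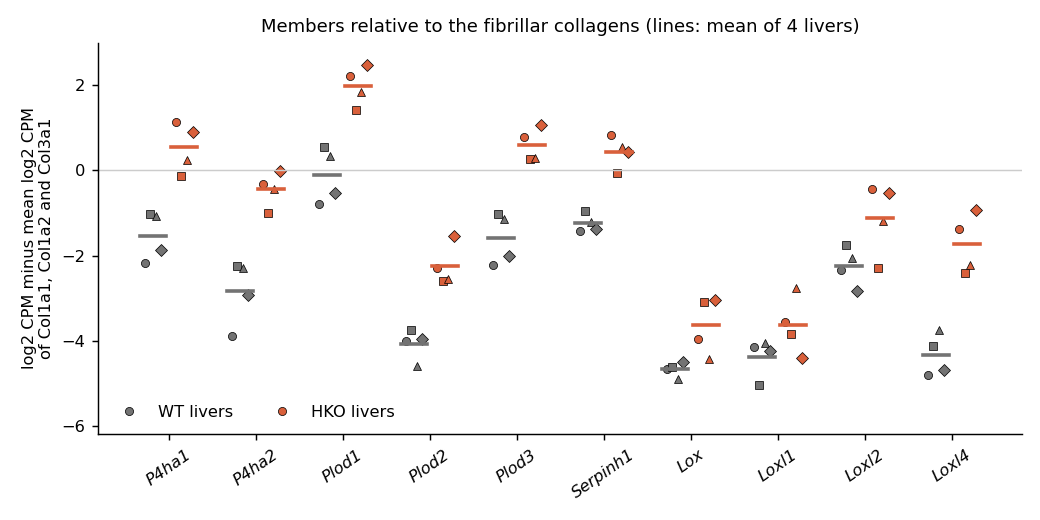
Log2 CPM of each member minus the mean log2 CPM of Col1a1, Col1a2 and Col3a1 in the same liver, for WT (grey) and HKO livers (orange), with 1 symbol per replicate number and a line at the mean of 4 livers. The HKO livers lie above the WT livers in 8 members, by 2.61 in Loxl4, while Loxl1 and Loxl2 overlap.

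Beside the members, 14 of 15 other genes of collagen folding, modification and crosslinking were listed and 11 were tested, with a median log2 fold change of −0.10. Fkbp14, a prolyl isomerase of the endoplasmic reticulum, fell by 0.63 on the log2 scale, from 9.35 ± 0.954 CPM to 6.01 ± 0.296 CPM (SD, n = 4, adjusted p = 0.0169 from edgeR). Tgm2, a transglutaminase that crosslinks matrix proteins through glutamine, fell by 0.48 (adjusted p = 0.0407 from edgeR). Ppib, which encodes cyclophilin B, the isomerase that works in the prolyl 3-hydroxylation complex, rose by 0.41, from 147 ± 22.4 CPM to 196 ± 9.23 CPM (SD, n = 4, adjusted p = 0.0464 from edgeR). With single livers left out, Fkbp14 passed in 7 of 8 fits, Tgm2 in 2 and Ppib in 1, and the highest adjusted p over the alternatives was 0.108, 0.139 and 0.133. Of the genes for procollagen export and propeptide cleavage, 14 of 15 were listed, 11 were tested and 0 passed in either direction with edgeR, with a median of −0.24. At an unadjusted p 6 of these were under 0.05, and DESeq2 called 1 and limma-voom 0.

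Hydroxylases need ascorbate, and lysyl oxidases need copper. Of 8 genes for the supply of these cofactors, all tested, 1 rose and 1 fell with edgeR, and the median was −0.11 (0.05 without WT replicate 3). With total count scaling 4 of the 8 passed, and 6 were under 0.05 at edgeR's unadjusted p. Gulo, the last enzyme of ascorbate synthesis in the mouse and expressed in hepatocytes, was at 280, 245, 261 and 311 CPM in WT livers 1 to 4 and at 451, 423, 409 and 466 CPM in HKO livers 1 to 4. All HKO livers were above all WT livers, and the rise of 0.67 on the log2 scale (SE 0.09, edgeR adjusted p = 0.00235) passed in all 8 fits that left out a liver. Atox1, the chaperone that hands copper to the export pumps, fell from 29.5 ± 4.22 CPM to 21.5 ± 1.63 CPM (SD, n = 4), a fold change of −0.45 on the log2 scale (edgeR, adjusted p = 0.0410). It passed in 1 of the 8 fits that left out a liver.

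Several hydroxylase genes are known to respond to hypoxia, and 14 of 16 hypoxia-inducible genes outside the members were tested. Their median log2 fold change was −0.08, and with edgeR 0 rose and 1 fell: Ldha, lactate dehydrogenase A, by 0.35 on the log2 scale (adjusted p = 0.0271 from edgeR), a call kept in 4 of the 8 fits that left out a liver. At edgeR's unadjusted p 4 of the 14 were under 0.05 (Pdk1, Egln1 and Ldha lower, Kdm3a higher), DESeq2 called 2 and limma-voom 1. The core letters of the hypoxia response element, ACGTG or GCGTG on either strand, were searched in the 300 bases around the start of each gene. RefSeq promoters of GRCm38.p6 were at hand for 6 members. ACGTG was present in 4 of them (P4ha1, P4ha2, Plod3 and Serpinh1) and not in Plod1 or Loxl4, and 19.7% of 27025 promoters of this length held it. GCGTG was present in Plod1, Plod3, P4ha1, P4ha2 and Loxl4 and not in Serpinh1, and 32.5% of the promoters held it. Both motifs contain a C followed by G, of which the 6 promoters held from 16 (Serpinh1) to 32 (P4ha1 and Loxl4). The 27025 promoters were not matched for this, so these shares cannot show whether the motifs are frequent in the members. The promoters of the 2 alpha subunits are shown as examples, with ACGTG or its reverse complement CACGT in capitals. That of P4ha1 is chr10:59323046-59323345 and that of P4ha2 is chr11:54100674-54100973, both on the plus strand.
P4ha1: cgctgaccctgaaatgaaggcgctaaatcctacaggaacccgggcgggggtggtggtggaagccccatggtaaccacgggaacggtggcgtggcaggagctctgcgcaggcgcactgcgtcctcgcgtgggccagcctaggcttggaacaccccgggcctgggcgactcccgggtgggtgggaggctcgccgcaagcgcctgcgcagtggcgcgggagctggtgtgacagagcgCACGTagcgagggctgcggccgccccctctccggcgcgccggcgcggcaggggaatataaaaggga
P4ha2: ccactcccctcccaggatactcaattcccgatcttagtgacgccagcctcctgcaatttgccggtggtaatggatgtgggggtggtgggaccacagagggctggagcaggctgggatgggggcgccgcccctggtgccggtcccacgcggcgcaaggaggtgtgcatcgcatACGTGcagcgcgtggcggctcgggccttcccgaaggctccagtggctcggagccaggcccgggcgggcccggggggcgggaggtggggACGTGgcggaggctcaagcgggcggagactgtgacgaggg
On either strand, P4ha1 holds ACGTG once, 16 bases before its start, and P4ha2 holds it 78 bases before and 10 bases after its start. A match describes the sequence only, and neither gene passed the test between genotypes.

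Elastin is another substrate of lysyl oxidases. Genes of elastin and of the microfibril and scaffold proteins around it had a median log2 fold change of −0.53 over 9 tested of 15 (−0.26 without WT replicate 1), with 8 below 0 and 0 that passed with edgeR, DESeq2 or limma-voom (1 at an unadjusted p under 0.05). General chaperones of the endoplasmic reticulum had a median of −0.07 over 13 tested genes, and their sum was 4800 to 5660 CPM in WT replicates 1 to 3 and 8450 CPM in WT replicate 4. Without that liver the median was 0.17, so its sign rests on 1 library, and 0 of these passed with any of the tools, also at edgeR's unadjusted p.

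**Figure D4:**
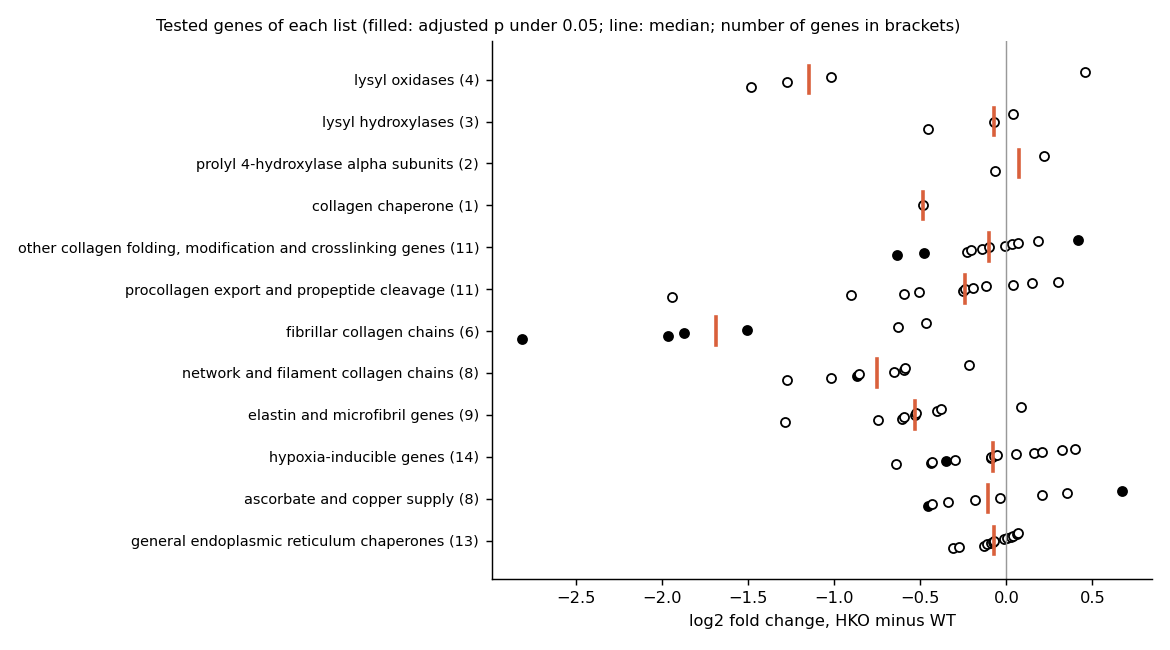
Log2 fold change (HKO minus WT) of the tested genes of each list, with 1 point per gene, filled where the adjusted p of edgeR is under 0.05, and a line at the median. The medians are −1.69 for the fibrillar collagens and −1.15 for the lysyl oxidases. The oxidase median is −0.29 with at least 10 counts in every liver, where Lox and Loxl1 are not tested. The lists of hydroxylases, general chaperones and hypoxia-inducible genes lie close to 0.

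Markers of the cells that may express the members were read in the same livers. The 10 hepatic stellate cell markers were all tested, 0 passed with edgeR, DESeq2 or limma-voom, also at edgeR's unadjusted p, their median log2 fold change was 0.11 (−0.02 without HKO replicate 1), and they summed to 498 to 598 CPM in WT mice and 444 to 674 CPM in HKO mice. Of 8 activated myofibroblast markers, 5 were tested, 0 passed with edgeR (1 at an unadjusted p, and 1 with DESeq2) and the median was −0.51, with sums of 41.1 to 60.4 CPM in WT mice and 25.0 to 43.9 CPM in HKO mice. Markers of portal fibroblasts and mesothelium were low, 6 of 7 were tested, all 6 were below 0 with a median of −1.43, and 0 passed with edgeR (3 at an unadjusted p under 0.05, and 1 with DESeq2). Without WT replicates 1 and 4 that median was −0.60. Gli1 of this list was at 0 in 7 of 8 livers.

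The sum of the portal fibroblast and mesothelial markers was 27.5, 10.7, 9.09 and 19.6 CPM in WT livers 1 to 4 and 8.02, 6.25, 6.30 and 3.15 CPM in HKO livers 1 to 4. WT replicates 1 and 4 had the highest sums, of which Gpm6a alone made up 13.3 and 10.2 CPM. Cd34, Msln, Upk3b, Gpm6a and Wt1 were each highest in these livers. Entpd2 of the same list was not, and at 0.657 CPM it was lowest of all livers in WT replicate 4. The sum does not tell portal fibroblasts and mesothelium apart. WT replicates 1 and 4 were also the livers with the most Lox, Loxl1, Plod2 and Serpinh1. The same livers were the highest in Col1a1, Col1a2 and Col3a1, with a mean log2 CPM of 5.57 and 5.22 over these chains. Loxl2 was highest in WT replicate 1 but lowest of the WT livers in replicate 4. Without these 2 livers, a setting chosen after seeing the data, the log2 fold change was −0.58 for Lox, −0.80 for Loxl1, −0.16 for Serpinh1 and 0.21 for Plod2, against −0.88 for Loxl2, and 0 members passed the test of edgeR. The part of these cells in the differences between genotypes was not tested.

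**Figure D5:**
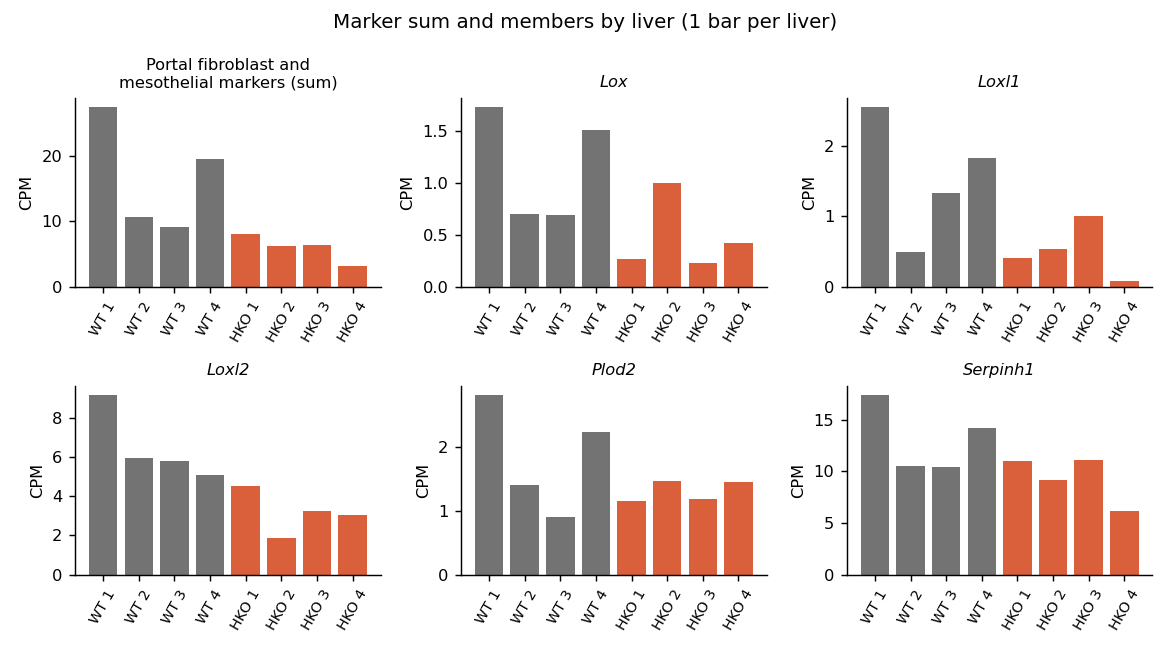
CPM in each liver (1 bar per liver, axes from 0) of the summed portal fibroblast and mesothelial markers and of Lox, Loxl1, Loxl2, Plod2 and Serpinh1, with WT livers in grey and HKO livers in orange. WT replicates 1 and 4, with marker sums of 27.5 and 19.6 CPM, are also the highest in Lox, Loxl1, Plod2 and Serpinh1. Gpm6a makes up 13.3 and 10.2 CPM of these sums.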

How the data were processed

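Livers of 4 WT and 4 HKO mice were compared, with groups and replicate numbers taken from the labels. The authors deposited estimated counts per gene, made with Partek's expectation-maximization quantification, which splits reads that match several genes; the submitters' processing notes name STAR and Partek, without versions. Whether strand was used in counting is not given in the sources used here. Per the labels, rRNA was depleted but the kit was one for small RNA, so the library type is uncertain. Of all values, 80.3% were exactly whole as deposited, with a tolerance of 0, and 0 columns were left unmapped. Coordinates are as listed, on GRCm38, and 8 of the members' ends lie 1 base past the RefSeq end. Exon lengths and 3′UTRs were taken from GENCODE M21.

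Estimated counts were rounded and tested with edgeR 4.0.16 in R 4.3.3 (TMM scaling, default expression filter with a minimum count of 10, robust quasi-likelihood test, Benjamini-Hochberg adjustment over 12395 genes, threshold 0.05). Log2 CPM used a prior count of 2, and single values were compared by exact permutation over 70 allocations. Other settings tried were limma-voom (limma 3.58.1), DESeq2 1.42.0, 3 other scalings, 2 other filters, a fold change above 1.5, the replicate block, each liver left out, another prior count (0.5), Col1a1 alone as reference, and, added after seeing the data, edgeR's legacy method and WT replicates 1 and 4 left out. The models were checked on simulated counts. Python 3.11.15, pandas 2.3.3, numpy 2.4.6, scipy 1.17.1 and matplotlib 3.10.9 were used.

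The rule for named genes was to give all 10 members, P4hb and Loxl3, the called genes of each other list (at most 4) and Col1a1, Col1a2, Col3a1 and Col4a1. Acta2, Gli1, Pdk1, Egln1, Kdm3a, Cd34, Msln, Upk3b, Gpm6a, Wt1 and Entpd2 were named after their values were seen. Alb and Sox9 were also named outside this rule. Members and lists were chosen with earlier results of these data known. Total counts per liver ranged from 12174339 to 18735785, which limits precision for Lox and Loxl1. Amino acid sequences and the promoters of Lox, Loxl1, Loxl2 and Plod2 were not used here.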

Additional observations from a re-analysis of the deposited data

Results flagged for a closer look

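P4ha1 was at 13.8 CPM in HKO replicate 1, while the other 3 HKO livers lay between 8.59 and 9.01 CPM. The gap made up 0.919 of the range of the group, above Dixon's critical value for 4 samples. This was 1 of 60 groups of 4 livers looked at, in which chance alone gives about 3.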

How the results depend on the processing

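No member other than Loxl2 passed the threshold in any alternative run. The count of members called was 0 in the analysis as reported and 1 (Loxl2) with total count scaling, upper quartile scaling, no filter, at least 10 counts in every liver, DESeq2 and the legacy method, and 0 to 1 when each liver was left out (1 without WT replicate 4, adjusted p = 0.0499 from edgeR, and without HKO replicate 1, 0.0292). With the replicate number as a block it was also 1 (Loxl2, adjusted p = 0.0350 from edgeR), but the numbers belong to different mice, the correlations of same-numbered livers were −0.148 to 0.0116, and 0 livers matched best with their own number, so they do not pair the livers. The log2 fold change of Plod3 turned to −0.054 with total count scaling, −0.030 without WT replicates 1 and 4, −0.0061 without WT replicate 4 and −0.027 without HKO replicate 2 (−0.054 to 0.088 over all alternatives, the highest without WT replicate 3), and that of Plod2 turned to 0.21 without WT replicates 1 and 4. Of 178 alternative values of single members, 164 kept direction and side of the threshold. Over all genes, 624 calls became 1014 with DESeq2, 367 with a fold change above 1.5 added, 456 with the replicate block, 233 without WT replicates 1 and 4, and 212 to 597 with 1 liver left out (fewest without WT replicate 2). Pairs of paralogs that did not overlap numbered 1 to 3 with 1 liver left out, and members that did not overlap relative to the fibrillar collagens 7 to 9 over all alternatives. The causes were not tested. Lox and Loxl1, at 1 to 31 counts, were not tested with at least 10 counts in every liver.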

Other observations

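Other cells of these livers showed a mixed picture beside the collagen enzymes. Gpnmb, a gene of lipid-laden macrophages, was at 0.767 to 1.49 CPM in WT livers and at 0 to 0.170 CPM in HKO livers. It was under the floor of 3 counts in each HKO liver, and had an adjusted p of 0.00410 from edgeR. Gpnmb passed the expression filter only through its WT livers, so the test could only find it lower in HKO livers. It was the 1 of 7 tested Kupffer cell and macrophage markers that passed, and the median log2 fold change of the 7, −0.01, ran from −0.21 to 0.29 with single livers left out. Without WT replicates 1 and 4 that median was −0.42, with all 7 below 0. Of the hepatocyte markers, 2 of 7 rose: Cps1, the entry enzyme of the urea cycle, by 1.26 on the log2 scale (adjusted p = 0.00433 from edgeR), and Hnf4a by 0.36 (adjusted p = 0.0406), the latter in 1 of the 8 fits that left out a liver, not with total count scaling, and with an adjusted p of up to 0.223 over the alternatives. In 8 sinusoidal endothelial markers, 3 tested cholangiocyte markers and 3 tested lymphocyte and neutrophil markers, 0 passed with edgeR, DESeq2 or limma-voom, also at edgeR's unadjusted p under 0.05. Their medians depended on single livers. The sinusoidal median was 0.52, from 0.28 without HKO replicate 1 to 0.95 without WT replicate 3, and 0.17 without WT replicates 1 and 4. The cholangiocyte median of 0.61 was that of Sox9, at 15.5 CPM in HKO replicate 3 against 5.53 to 7.87 CPM in the other HKO livers, and was 0.16 without that liver. The lymphocyte and neutrophil median was 0.36, from 0.10 without WT replicate 1 to 0.78 without WT replicate 4.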
